A study of Mus musculus with 7 samples.

Results

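Expression of 9 genes of myelin and of the mature oligodendrocyte, Mbp, Mobp, Mog, Mag, Cldn11, Cnp, Aspa, Ermn and Ppp1r14a, was described in transplanted murine gliomas. The genes were taken by symbol from an Affymetrix expression array. Their list was chosen with earlier results of these data known. All 9 were found among the 18193 genes with a probe set of their own, and they were read by 23 of the 34945 probe sets that carry 1 gene symbol. Each gene is given by the probe set with the highest mean over all samples, and its other probe sets are described after it.

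The samples were EGFP-positive glioma cells sorted by flow cytometry from 4 secondary and 3 tertiary gliomas. All 7 samples were C57/Bl6 cells that overexpressed PDGF-B together with EGFP from a single transcript, and all had been grown in the brains of NOD/SCID mice, a host without functional B and T lymphocytes. The starting material was early-onset, low-grade glioma. Secondary gliomas came from its transplantation and tertiary gliomas from a further passage, and both were taken when the host showed signs of glioma. The sort selects on the EGFP carried with the oncogene. Samples within a group are labelled as biological replicates. The labels do not give the primary tumour or host of each, nor the age of the animals, and p-values measure the spread between these samples. The comparison shows how these genes differed between the cells sorted from secondary gliomas and those sorted after a further passage.

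Myelin is the membrane that oligodendrocytes wrap around axons in the brain and spinal cord. Oligodendrocyte precursors divide in response to PDGF, and as they leave the cell cycle and mature they switch on the genes of myelin proteins, of myelin lipids and of the cytoskeleton that carries the wrapping process. PDGF-driven gliomas of the mouse are known to resemble oligodendrocyte precursors.

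Values are log2 expression values, normalised over the arrays by RMA, and 1 unit is a doubling of the signal. The medians of the 7 arrays lay between 5.57 and 5.64, and the correlation between samples over the genes tested lay between 0.825 and 0.981. A gene was tested if the mean of its probe set was at least 3.99, the 25th percentile of all probe sets, and all 9 myelin genes passed this filter. Tertiary and secondary gliomas were compared with limma over the 14453 genes tested, and a gene was called at a Benjamini-Hochberg adjusted p under 0.05. Pdgfra and Sox10, genes of the oligodendrocyte lineage, were high in every sample, though their levels alone do not settle the identity of the sorted cells. Pdgfra, the PDGF receptor of precursors, lay between 10.73 and 11.15, and Sox10, a transcription factor of the whole oligodendrocyte lineage, between 10.22 and 10.97. Markers of microglia and macrophages were also present in the sorted cells, and they moved with the passage. The mean of the 19 such genes tested was between 9.76 and 10.71 in the secondary gliomas and between 5.59 and 6.42 in the tertiary gliomas.

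Of the 9 myelin genes, 5 were called lower in the tertiary gliomas and 0 were called higher. Those called were Mog, Mag, Aspa, Ermn and Ppp1r14a. All 3 tertiary values of Aspa lay under the filter, so Aspa passed it through the secondary gliomas. Over all genes tested, 6.33% were called lower and 1.04% were called higher. The median log2 fold change, tertiary minus secondary, was -1.88 over the 9 genes and 0.09 over all genes tested. In 7 of the 9 genes every tertiary sample lay below every secondary sample, which was so for 11.2% of all genes tested, and the opposite was so for 10.8%. Mobp and Cldn11 were the 2 genes whose groups overlapped. All 19 microglia and macrophage markers tested were called lower too, and their part in the result was not tested. In bulk RNA, fewer cells of a type and less RNA per cell cannot be told apart.

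Mog, Ermn, Mobp and Cldn11 are shown with the 250 bases before their RefSeq transcription start (assembly GRCm38.p6), since each stands for a pattern among the tertiary gliomas described after it. Mog was low in every tertiary sample, and Cldn11 was low in tertiary glioma 1 alone. Ermn and Mobp were higher in tertiary glioma 1 than in the other tertiary samples, though Ermn lay below every secondary sample there too. Mog lies at chr17:37023399-37023648 on the minus strand, Ermn at chr2:58052865-58053114 on the minus strand, Mobp at chr9:120149492-120149741 on the plus strand and Cldn11 at chr3:31149670-31149919 on the plus strand. Each sequence runs 5′ to 3′ on the strand of the gene, and capitals mark the letters of 3 searched motifs.
Mog: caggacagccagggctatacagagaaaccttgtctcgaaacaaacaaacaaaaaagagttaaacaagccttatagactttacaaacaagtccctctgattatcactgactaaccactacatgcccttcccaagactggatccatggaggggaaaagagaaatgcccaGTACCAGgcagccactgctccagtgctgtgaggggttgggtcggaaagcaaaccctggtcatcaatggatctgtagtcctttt
Ermn: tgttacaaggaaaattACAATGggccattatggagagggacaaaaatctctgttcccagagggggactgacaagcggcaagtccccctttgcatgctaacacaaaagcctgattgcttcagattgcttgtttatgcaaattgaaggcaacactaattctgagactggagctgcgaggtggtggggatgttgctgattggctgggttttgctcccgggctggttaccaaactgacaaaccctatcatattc
Mobp: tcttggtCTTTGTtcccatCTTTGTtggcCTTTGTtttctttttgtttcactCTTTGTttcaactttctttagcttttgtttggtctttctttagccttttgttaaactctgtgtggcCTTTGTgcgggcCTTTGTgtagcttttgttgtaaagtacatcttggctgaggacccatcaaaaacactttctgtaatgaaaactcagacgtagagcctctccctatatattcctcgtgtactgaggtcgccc
Cldn11: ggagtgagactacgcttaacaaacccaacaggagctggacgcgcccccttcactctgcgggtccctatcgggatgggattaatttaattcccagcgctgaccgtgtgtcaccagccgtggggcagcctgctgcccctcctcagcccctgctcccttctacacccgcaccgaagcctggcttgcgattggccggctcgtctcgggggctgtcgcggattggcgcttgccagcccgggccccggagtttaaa

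The motifs were those of 3 kinds of factor with known roles in oligodendrocytes, searched on both strands. They were CTGGCAC or CTGGTAC for MYRF, the factor that switches on myelin genes, ACAAAG or ACAATG for SOX proteins such as Sox10, and CAGCTG, an E-box of the kind that Olig proteins bind. No matches overlapped in the windows of these genes. Mog held 1 MYRF motif, at position -83 from the transcription start. Mobp held 6 SOX motifs, all on the strand opposite to the gene, and Ermn held 1. Cldn11 held none of the 3 motifs in this window. Of 32851 promoter windows of the same length, 5.93% held the MYRF motif, 25.2% the SOX motif and 13% the E-box. Windows were searched for 8 of the 9 genes, without Mbp, and Mag has 3 of the 10 windows. The chromosome of Mbp was left out for the 9 genes and kept for the windows of all genes. In at least 1 window, 3 of the 8 genes held the MYRF motif, 4 the SOX motif and 1 the E-box, against 6.79%, 28.2% and 14.7% of the 27025 genes with a window. A match describes the letters only.

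Mbp and Mobp encode proteins of compact myelin, where myelin basic protein holds the cytoplasmic faces of the membrane together and Mobp is an abundant small basic protein. Mbp was 10.64, 10.02, 10.58 and 10.47 in secondary gliomas 1 to 4, and 9.99, 7.79 and 7.33 in tertiary gliomas 1 to 3. Tertiary glioma 1 thus lay 0.03 below the lowest secondary sample, and the other two lay far below it. The means were 10.43 ± 0.28 (SD, n = 4) and 8.37 ± 1.42 (SD, n = 3), a log2 fold change of -2.06 ± 0.58 (SE) that did not pass the test (adjusted p = 0.0796), with a 95% confidence interval from -3.40 to -0.72. Mobp was 9.18, 8.88, 8.19 and 8.62 in the secondary gliomas and 8.80, 6.86 and 5.98 in the tertiary gliomas. Tertiary glioma 1 fell within the secondary range and the other two lay below it. The log2 fold change of Mobp was -1.51 ± 0.60 (SE) and did not pass the test either (adjusted p = 0.183, 95% confidence interval -2.90 to -0.11). Both calls turned on tertiary glioma 1. Without it, the log2 fold change was -2.87 for Mbp (adjusted p = 0.000831) and -2.30 for Mobp (adjusted p = 0.00881). Without tertiary glioma 3 it was -1.54 for Mbp (adjusted p = 0.221) and -0.89 for Mobp (adjusted p = 0.431).

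**Figure D1:**
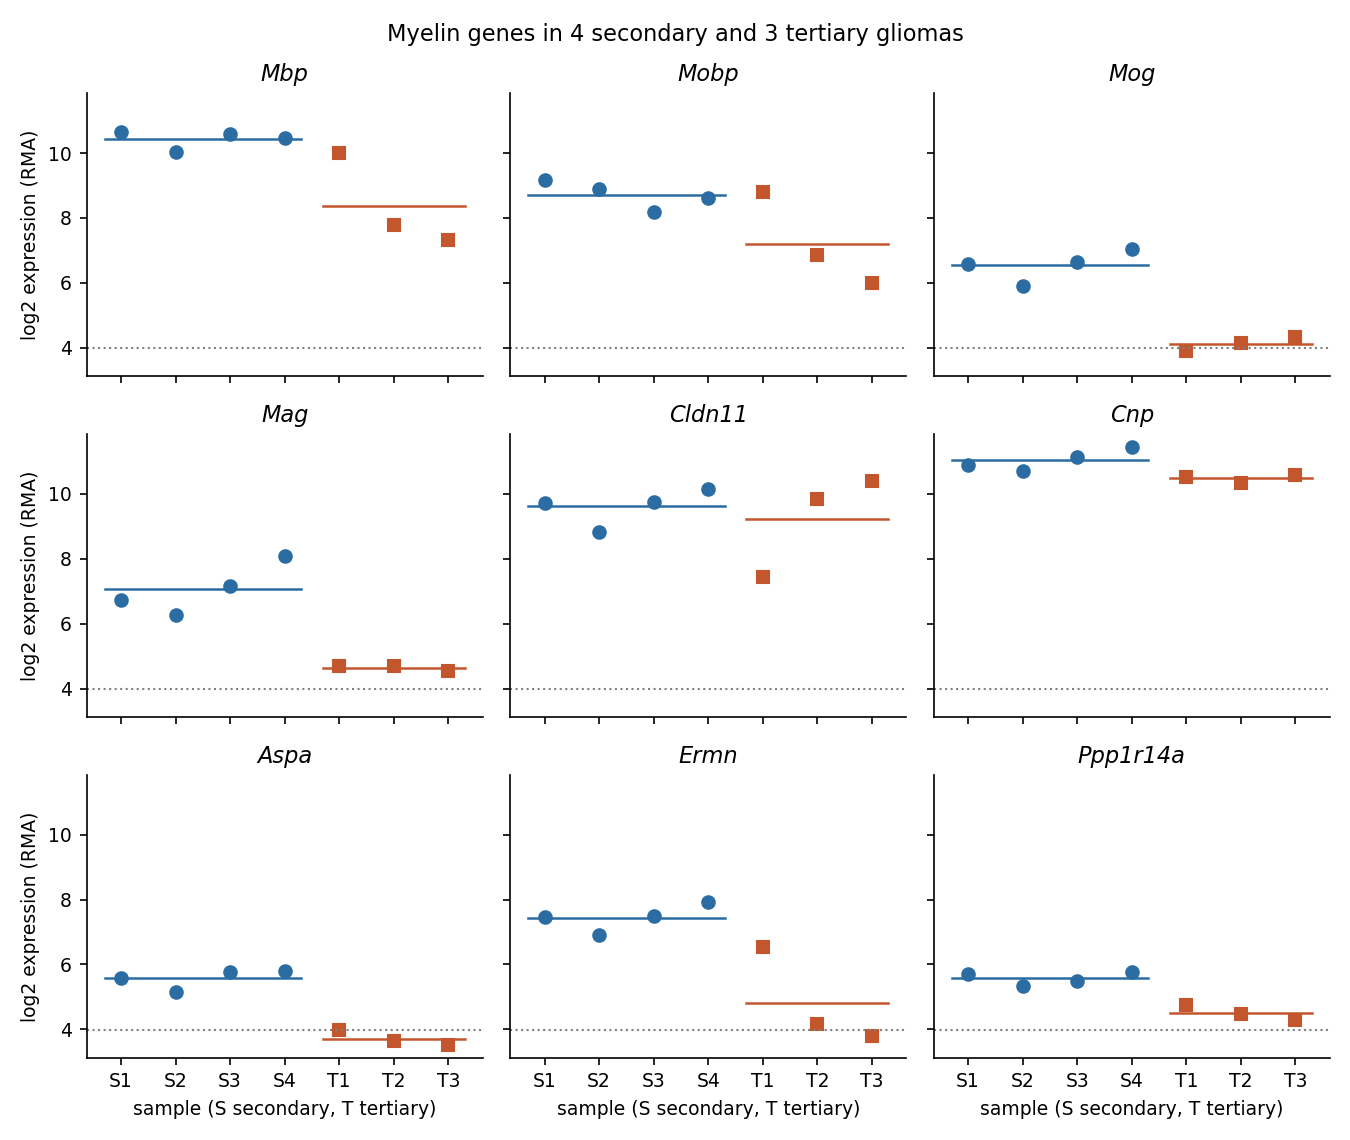
Log2 expression value (vertical axis) of each of the 9 genes in the 4 secondary (S1 to S4) and 3 tertiary (T1 to T3) gliomas, with points for samples, solid lines for group means and a dotted line at the filter (3.99). In Mog, Mag, Aspa and Ppp1r14a the tertiary samples lie together below the secondary samples, while in Mbp, Mobp and Ermn tertiary glioma 1 lies above the other two and in Cldn11 below them.

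Mog, Mag and Cldn11 are proteins of the myelin surface and of its contacts. Mog, an immunoglobulin-type protein on the outermost layer of the sheath, was 6.58, 5.91, 6.65 and 7.05 in secondary gliomas 1 to 4 and 3.90, 4.14 and 4.34 in tertiary gliomas 1 to 3. The groups were well apart, and in tertiary glioma 1 the value lay below the level of the filter. Mog was 6.55 ± 0.47 (SD, n = 4) against 4.13 ± 0.22 (SD, n = 3), a fall with a log2 fold change of -2.42 ± 0.26 (SE, adjusted p = 0.00102). Mag, the adhesion protein of the innermost layer that faces the axon, was 6.74, 6.27, 7.16 and 8.09 in the secondary gliomas and 4.70, 4.68 and 4.55 in the tertiary gliomas. Its secondary samples were spread widely and its tertiary samples were nearly equal, with SDs of 0.77 and 0.08. The log2 fold change of Mag was -2.42 ± 0.38 (SE, adjusted p = 0.00747).

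Cldn11, the claudin of the tight junctions between myelin layers, had a pattern of its own. It was 9.72, 8.83, 9.75 and 10.17 in the secondary gliomas and 7.44, 9.85 and 10.39 in the tertiary gliomas. Tertiary glioma 1 held the lowest value of all 7 samples and tertiary glioma 3 the highest. The log2 fold change was -0.39 ± 0.67 (SE) and did not pass the test (adjusted p = 0.764, 95% confidence interval -1.95 to 1.17). Without tertiary glioma 1 it was 0.51 (adjusted p = 0.409), so its direction rested on that sample.

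Cnp and Aspa are enzymes, and Ermn and Ppp1r14a act on the cytoskeleton. Aspa, the aspartoacylase that frees acetate from N-acetylaspartate for lipid synthesis, was 5.59, 5.17, 5.78 and 5.81 in secondary gliomas 1 to 4 and 3.98, 3.63 and 3.52 in tertiary gliomas 1 to 3. All 3 tertiary values lay under the level of the filter, near the dim end of the array, so Aspa passed the filter through the secondary gliomas and the size of its difference is uncertain. Aspa fell with a log2 fold change of -1.88 ± 0.20 (SE), and its adjusted p of 0.000956 was the lowest of the 9 genes. Ppp1r14a, an inhibitor of myosin phosphatase, was 5.71, 5.34, 5.49 and 5.77 in the secondary gliomas and 4.75, 4.49 and 4.29 in the tertiary gliomas. The groups did not overlap, and Ppp1r14a fell with a log2 fold change of -1.07 ± 0.17 (SE, adjusted p = 0.00737).

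Ermn, the actin-binding protein ermin of the outer cytoplasmic lip and the paranodes, was 7.45, 6.90, 7.50 and 7.93 in the secondary gliomas and 6.52, 4.16 and 3.79 in the tertiary gliomas. As with Mbp and Mobp, tertiary glioma 1 lay nearest to the secondary samples. The value in tertiary glioma 3 lay under the level of the filter and that in tertiary glioma 2 close above it. The size of the difference is therefore uncertain. Ermn had a log2 fold change of -2.62 ± 0.62 (SE, adjusted p = 0.0440), the largest of the 9 genes, and the call was the least stable. It held in 1 of the 7 fits that left out a sample, that without tertiary glioma 1 (log2 fold change -3.47, adjusted p = 0.000892). In the other fits the adjusted p lay between 0.0752 and 0.163. Cnp, the cyclic nucleotide phosphodiesterase that keeps cytoplasmic channels of myelin open, was 10.90, 10.71, 11.14 and 11.44 in the secondary gliomas and 10.53, 10.33 and 10.59 in the tertiary gliomas. The groups were 0.12 apart at their nearest samples. Its log2 fold change of -0.56 ± 0.19 (SE) did not pass the test (adjusted p = 0.132) and passed in none of the fits without a sample, with an interval from -1.01 to -0.12.

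**Figure D2:**
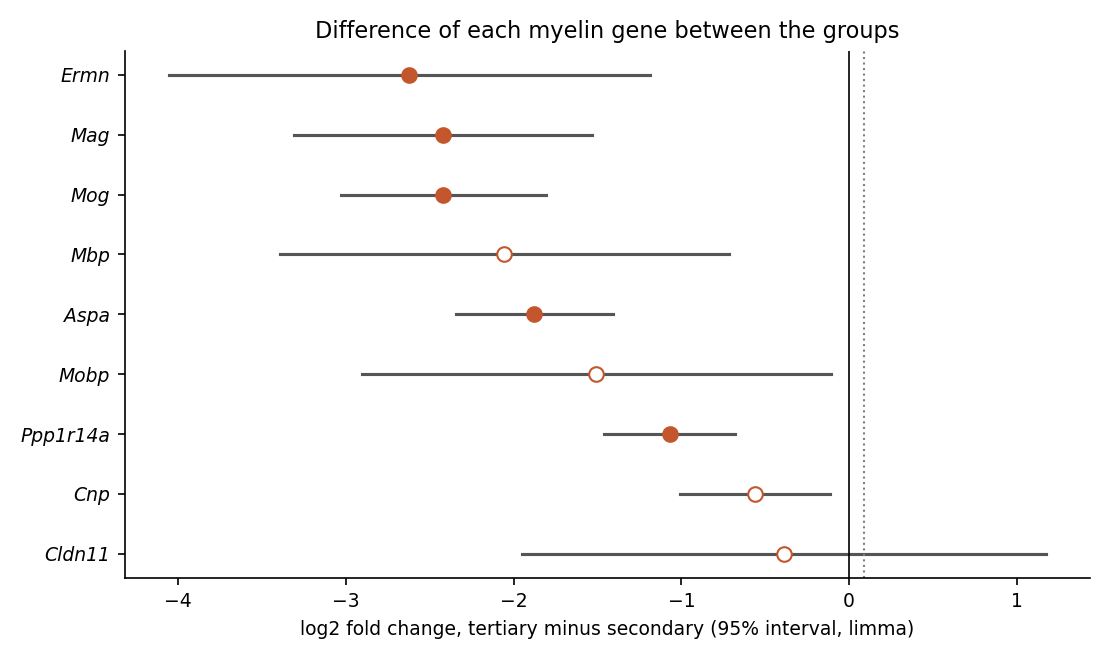
Log2 fold change, tertiary minus secondary, of the 9 genes with its 95% confidence interval from limma, where filled points mark an adjusted p under 0.05. All 9 points lie below 0, from -2.62 for Ermn to -0.39 for Cldn11, and the interval of Cldn11 alone crosses 0.

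The 4 genes called in all 7 fits without a sample were Mog, Mag, Aspa and Ppp1r14a. Of these, Aspa passed the filter through the secondary gliomas, with every tertiary value under it. Set against the secondary mean, Mog was -2.64, -2.41 and -2.20 in tertiary gliomas 1, 2 and 3. Mag was -2.36, -2.38 and -2.52, Aspa -1.61, -1.96 and -2.07, and Ppp1r14a -0.83, -1.09 and -1.29. In contrast, Mbp was -0.43, -2.64 and -3.10, Mobp was 0.08, -1.86 and -2.74, and Ermn was -0.92, -3.29 and -3.66. Tertiary glioma 1 was the highest tertiary sample in 6 of the 9 genes, and tertiary glioma 3 the lowest in 6. Over all genes tested, tertiary glioma 3 was the lowest of its group in 28.9%. Tertiary glioma 1 was the highest in 39.3% and the lowest in 40.8%, larger shares than either other tertiary glioma had. In the fit with array weights its weight was the lowest of the 7 samples (0.38), so it stood apart beyond the 9 genes.

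**Figure D3:**
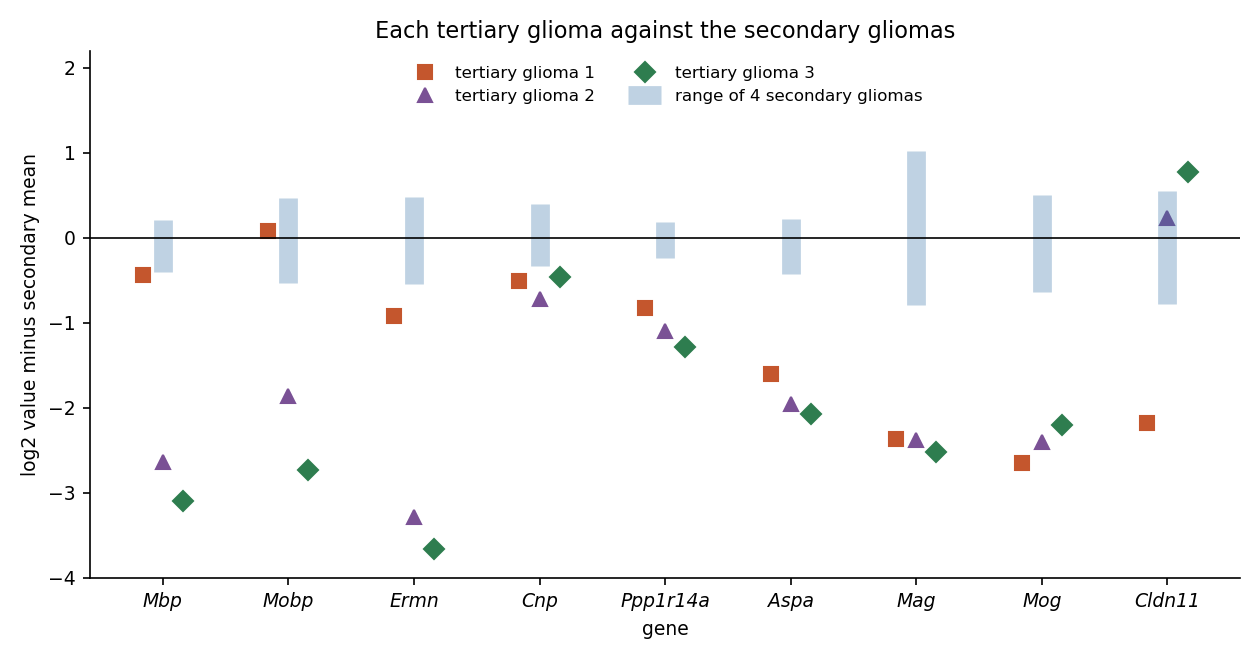
Difference of each tertiary glioma (T1 to T3) from the mean of the 4 secondary gliomas, in log2 units, for each of the 9 genes, with a bar for the range of the secondary gliomas. Tertiary glioma 1 stands near 0 for Mbp (-0.43) and Mobp (0.08), at -2.64 for Mog and at -2.18 for Cldn11.

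The secondary gliomas also had an order in common among the 9 genes. Secondary glioma 4 was the highest of its group in 7 genes and secondary glioma 2 the lowest in 8, against 19.6% and 18.2% of all genes tested. The mean over the 9 genes was 8.06, 7.56, 8.03 and 8.37 in secondary gliomas 1 to 4 and 6.74, 6.21 and 6.09 in tertiary gliomas 1 to 3. The microglia and macrophage genes had another order among the secondary gliomas, with the highest mean of 10.71 in secondary glioma 3. Over the 7 samples, each gene was set against the mean of the other 8, which share the arrays and the group difference. Pearson's r was 0.991 for Ppp1r14a, 0.989 for Aspa, 0.950 for Mag, 0.935 for Mog, 0.917 for Ermn, 0.871 for Cnp, 0.861 for Mbp, 0.699 for Mobp and -0.0175 for Cldn11.

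Several of the genes are read by more than 1 probe set, and these were tested one by one with adjustment over all 27501 probe sets past the filter. Of the 23 probe sets, 13 were called lower and 0 higher, against 5.09% and 0.764% of all probe sets tested. In 20 of the 23 every tertiary sample lay below every secondary sample, against 10.1% of all probe sets tested. Mbp has 8 probe sets, with log2 fold changes from -2.40 to -0.90, and 4 of them were called. The called ones included the dimmest of them, whose secondary values of 5.31, 5.03, 5.19 and 5.24 stood against tertiary values of 4.59, 4.07 and 4.21. Mobp has 5 probe sets, with log2 fold changes from -2.44 to -1.13, and 3 were called. In the Mobp probe set with the lowest p the secondary values were 7.10, 6.82, 7.66 and 7.58 and the tertiary values 5.44, 4.86 and 4.26, with no overlap (log2 fold change -2.44, adjusted p = 0.00286). Tertiary glioma 1 was the highest tertiary sample there too, but it lay below every secondary sample. Probe sets of Mbp and Mobp thus differed in whether they passed the test and kept the same direction. Which transcripts each probe set reads was not analysed here.

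With the mean of all probe sets of a gene in place of the brightest one, Mbp and Mobp were called, at log2 fold changes of -1.98 (adjusted p = 0.0358) and -1.71 (adjusted p = 0.0327), and 7 of the 9 genes were called lower, against 6.35% of all genes tested in that way. Both probe sets of Ermn were called, and the dimmer one had a log2 fold change of -2.70 (adjusted p = 0.00990). Its tertiary values were 5.03, 3.15 and 3.33, of which the last 2 lay under the filter, so it passed the filter through the secondary gliomas and the size of its difference is uncertain. None of the 3 probe sets of Cnp was called, with log2 fold changes of -0.56, -0.56 and -0.37. The brightest probe set of Cnp and several of Mbp are of the types that may also bind related transcripts, by their names. Mog, Mag, Aspa, Ppp1r14a and Cldn11 have 1 probe set each.

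**Figure D4:**
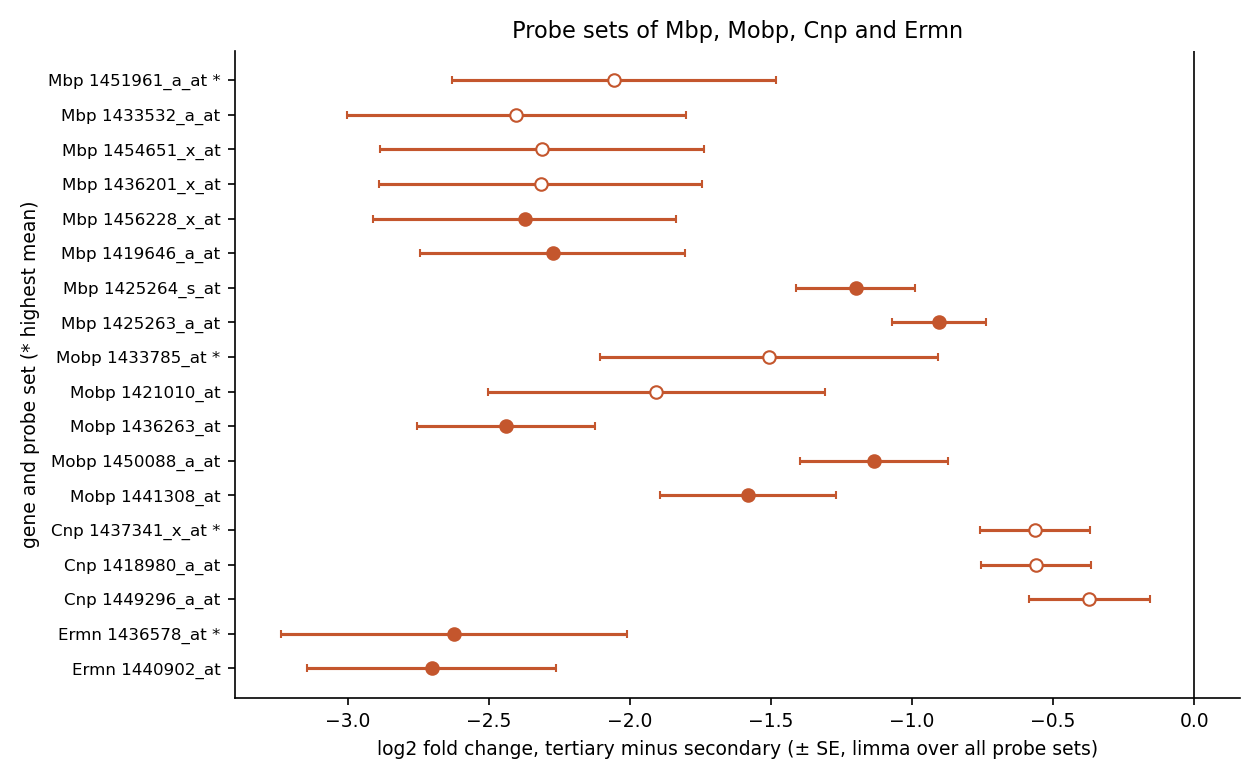
Log2 fold change, tertiary minus secondary, of each probe set of Mbp, Mobp, Cnp and Ermn with its standard error, where an asterisk marks the brightest probe set of a gene and filled points mark an adjusted p under 0.05 over all probe sets. The 8 probe sets of Mbp span -2.40 to -0.90 and the 5 of Mobp -2.44 to -1.13, all below 0.

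Other genes of the oligodendrocyte lineage were taken from 4 lists that hold none of the 9 genes. Of 74 genes listed, 68 were tested, 13 were called lower and 0 higher, against 6.33% and 1.04% of all genes tested, and the median log2 fold change was -0.38. In 25 of the 68 every tertiary sample lay below every secondary sample, and in 2 above, against 11.2% and 10.8% of all genes tested. The count of genes called lower was 8 without secondary glioma 4, and it was 7 when either tertiary glioma 2 or tertiary glioma 3 was left out.

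Of 18 other genes of myelin structure and junctions, 3 were called lower, against 6.33% of all genes tested, and the median of the 18 was -0.48. Cd82, a tetraspanin of maturing oligodendrocytes, was 7.44, 7.46, 8.51 and 8.04 in the secondary gliomas and 5.55, 5.89 and 5.79 in the tertiary gliomas, a fall with a log2 fold change of -2.12 (adjusted p = 0.00258). Mal, a proteolipid of compact myelin, was 7.46, 7.28, 7.81 and 8.09 against 5.79, 6.34 and 5.63, and it fell by 1.74 (adjusted p = 0.00452). Neither gene had overlapping groups. With the mean of its probe sets Cd82 had a log2 fold change of -1.08 (adjusted p = 0.00462). The tetraspanin Cd9 fell by 0.77 (adjusted p = 0.0220), a call that was lost without secondary glioma 2, secondary glioma 4 or tertiary glioma 2.

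Of 11 genes of myelin lipid synthesis, 1 was called lower, a share near the 6.33% of all genes tested, and the median was -0.39. The one called was Fa2h, the hydroxylase of the fatty acids of galactolipids, with 7.48, 5.91, 7.15 and 7.79 in the secondary gliomas and 5.07, 4.71 and 5.79 in the tertiary gliomas. Its log2 fold change was -1.89 ± 0.46 (SE, adjusted p = 0.0485), and the call held in 1 of the 7 fits without a sample. It was also lost with no filter on dim probe sets and with either other normalisation. Ugt8a, the enzyme that makes galactosylceramide, had 9.05, 8.57, 8.50 and 8.99 against 8.46, 7.72 and 8.82, so that the groups overlapped. Its log2 fold change of -0.44 ± 0.28 (SE) did not pass the test (adjusted p = 0.369), and leaving out 1 sample moved it between -0.69 (tertiary glioma 3) and -0.14 (tertiary glioma 2).

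Of 28 other genes of mature oligodendrocytes, 9 were called lower, against 6.33% of all genes tested, and the median of the 28 was -0.39. The 9 were Apod, Car2, Evi2a, Gpr37, Lpar1, Arsg, Klk6, Ndrg1 and Efhd1. Car2, the carbonic anhydrase of oligodendrocytes, was 9.38, 8.87, 9.59 and 9.55 in the secondary gliomas and 6.74, 5.69 and 5.33 in the tertiary gliomas, and it fell by 3.43 (adjusted p = 0.000637). As in Mbp, tertiary glioma 1 held the highest tertiary value, but here it lay well below the secondary samples. Apod, a lipid-binding lipocalin, was 11.31, 11.13, 11.02 and 11.06 against 7.93, 8.58 and 8.26, and it fell by 2.87 (adjusted p = 8.96e-05). The size depends on the probe set, and with the mean of its probe sets the log2 fold change was -1.48 (adjusted p = 0.000393). Gpr37, a receptor of maturing oligodendrocytes, fell by 1.09 (adjusted p = 0.00820). Evi2a fell by 3.92 (adjusted p = 0.00107), and the lysophosphatidic acid receptor gene Lpar1 fell by 2.34 (adjusted p = 0.0160), a call that was lost without tertiary glioma 2 or 3. With the mean of their probe sets the log2 fold changes were smaller, at -2.65 for Evi2a (adjusted p = 0.00267) and -1.58 for Lpar1 (adjusted p = 0.0184). Like the microglia and macrophage genes, Cd82, Cd9, Car2, Gpr37, Evi2a, Arsg and Efhd1 were highest in secondary glioma 3. Of the other called genes of these lists, Mal, Fa2h, Klk6 and Lpar1 were highest in secondary glioma 4, and Apod and Ndrg1 in secondary glioma 1. Over all genes tested, secondary glioma 3 was the highest of its group in 29.8%. Car2 and Gpr37 were nearly as high in secondary glioma 4. Among the secondary gliomas, both were lowest in secondary glioma 2, and the mean of the microglia and macrophage genes in secondary glioma 1. Whether these genes came from the same cells was not tested.

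Of 11 transcription factors of the lineage, 0 were called by limma in either direction, and the median was -0.04. Myrf, which drives the myelin genes, was 5.62, 5.11, 5.97 and 6.16 in the secondary gliomas and 3.80, 5.27 and 5.19 in the tertiary gliomas. Its lowest value was that of tertiary glioma 1, and the groups overlapped (log2 fold change -0.96 ± 0.40 (SE), adjusted p = 0.198). Without tertiary glioma 1 it was -0.49. Sox10 had a log2 fold change of 0.30 ± 0.17 (SE, adjusted p = 0.338; 0.18 without secondary glioma 3) and Olig2, which specifies the lineage, 0.17 ± 0.24 (SE, adjusted p = 0.714). The direction of Olig2 turned without secondary glioma 3, to -0.047. Tcf7l2, a factor of newly formed oligodendrocytes, was 9.12, 8.63, 9.11 and 9.07 against 8.66, 7.72 and 8.24. It had a log2 fold change of -0.77 ± 0.24 (SE, adjusted p = 0.107), which passed the test without tertiary glioma 1 (adjusted p = 0.0322). Nkx6-2, a homeobox factor of myelinating cells, had -0.44 ± 0.16 (SE, adjusted p = 0.149).

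Of 13 markers of oligodendrocyte precursors, 0 were called by limma in either direction, and the median was 0.07. Pdgfra was 11.07, 10.92, 10.73 and 11.11 in the secondary gliomas and 11.15, 10.94 and 10.96 in the tertiary gliomas. The groups overlapped throughout, with a log2 fold change of 0.05 ± 0.14 (SE, adjusted p = 0.858), and the sign turned without secondary glioma 3 (-0.023) or tertiary glioma 1 (-0.012). Vcan, the proteoglycan versican, had a log2 fold change of 0.34 ± 0.20 (SE, adjusted p = 0.348), which was 0.11 without tertiary glioma 1. Sox6, a factor that keeps precursors immature, was 8.55, 8.60, 8.12 and 9.19 against 9.22, 9.61 and 9.27. All 3 tertiary values lay above the secondary ones, and the log2 fold change of 0.75 ± 0.25 (SE) did not pass the test (adjusted p = 0.126) except without secondary glioma 4 (0.95, adjusted p = 0.0462).

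**Figure D5:**
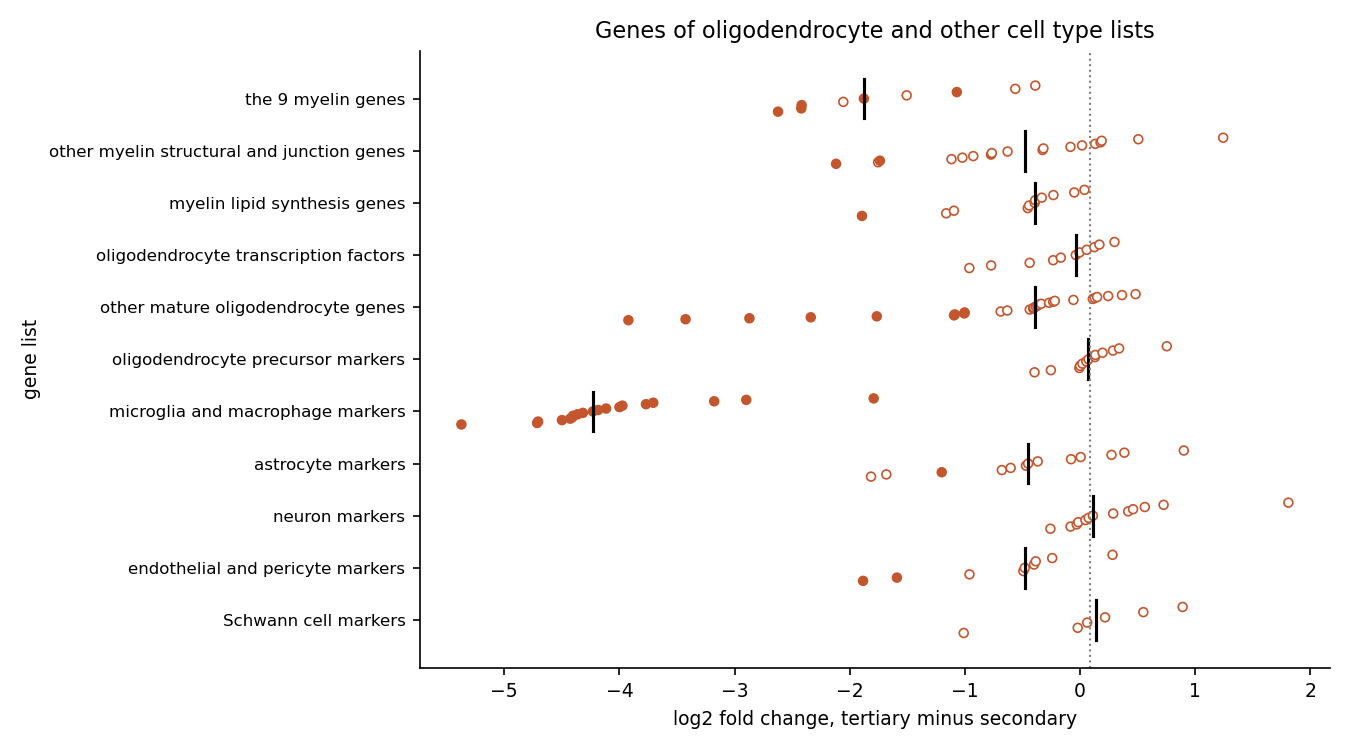
Log2 fold change, tertiary minus secondary, of each tested gene of the 9 and of each list, with a line at the list's median, a dotted line at the median of all genes tested (0.09) and filled points for an adjusted p under 0.05. The median is -1.88 for the 9 genes, -0.39 for other mature oligodendrocyte genes, 0.07 for precursor markers and -4.23 for microglia and macrophage markers.

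Markers of the other cell types that a sort could hold were read beside the myelin genes. The microglia and macrophage markers had a median log2 fold change of -4.23. Ptprc, the leukocyte antigen CD45, was 9.94, 10.19, 10.60 and 10.20 in the secondary gliomas and 4.55, 5.65 and 4.38 in the tertiary gliomas (log2 fold change -5.37, adjusted p = 8.13e-05). Fcer1g, a signalling chain of Fc receptors, fell by 4.12 (adjusted p = 8.02e-05). No marker of any list is at 0, since RMA gives every probe set a value.

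Of the other cell types, astrocyte markers had 1 of 13 tested genes called lower, near the share of all genes tested, and a median of -0.45. It was Glul, glutamine synthetase, which oligodendrocytes can also express (log2 fold change -1.20, adjusted p = 0.00238). Endothelial and pericyte markers had a median of -0.48, and 2 of 9 were called lower, against 6.33% of all genes tested. The 2 called genes were Anpep (-1.88, adjusted p = 0.0177) and Abcc9 (-1.59, adjusted p = 0.0432). The call of Anpep was lost when secondary glioma 4 or tertiary glioma 2 or 3 was left out. Abcc9 kept its call in 2 of the 7 fits without a sample. All tertiary values of both genes lay under 3.99, so both passed the filter through the secondary gliomas and the sizes are uncertain. Neuron markers had 0 of 13 called by limma and a median of 0.11, with the lowest p in Tubb3 (1.81, adjusted p = 0.0763). Schwann cell markers, the myelin genes of the peripheral nerve, had 0 of 6 called by limma and a median of 0.14. The lowest p was that of Egr2 (-1.01, adjusted p = 0.106), which was called without tertiary glioma 3 (-1.38, adjusted p = 0.0213).

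The genes whose pattern over the 7 samples was most like the mean of the 9 myelin genes were ranked by Pearson's r, among all genes tested outside them. The 5 highest were St18 (r = 0.992), Qdpr (0.991), Cd36 (0.988), Ninj1 (0.988) and Car2 (0.988), with Spearman's rho of 0.964, 0.929, 0.893, 0.964 and 0.893. These values are descriptions over 7 points that share the arrays and the difference between the groups. The tertiary minus secondary difference was -0.41 for Qdpr, -0.98 for Ninj1 (-0.51 with the mean of its probe sets) and -3.43 for Car2. St18 and Cd36 had tertiary means of 2.76 and 3.35, under the filter, and passed it through the secondary gliomas. Qdpr and Car2 are in the list of other mature oligodendrocyte genes.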

How the data were processed

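Total RNA of sorted cells was amplified from 30 ng, labelled with biotin and hybridised to arrays, per the labels' protocols. The deposited table holds log2 values that the authors made with RMA, per the submitters' processing notes. The range of the values gave the log base, and the sources used here do not give the RMA version. RMA equalises arrays and compresses differences of dim probe sets. No batch was tested, since scan dates and detection calls were not used here. The number of arrays limits the precision.

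Of 45101 probe sets, 34945 had 1 symbol in the platform annotation, 932 had several, 9160 had none and 64 were controls. Genes were tested with limma 3.58.1 (lmFit, eBayes) in R 4.3.3, with no covariate, on all 7 samples. The script was tested on simulated data with 14453 genes for this comparison, where it recovered 52% of 100 genes changed by a log2 fold change of 1 and 84% of 100 changed by 2. Alternatives were another probe rule, other filters, normalizations, priors and thresholds, array weights, a replicate block and fits without samples.

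Members and lists were chosen with earlier results of these data known. The text names all 9 members and all their probe sets by gene, up to 5 called genes of each oligodendrocyte list by lowest p (or the 2 with the lowest p), a few lineage genes always, up to 2 called genes of each other cell type (or the 1 with the lowest p), and the 5 genes most like the members. Arsg, Klk6, Ndrg1 and Efhd1 were named in addition, to complete a count. Motifs and the 4 promoters shown were chosen after the values were seen. Sequences are from RefSeq, assembly GRCm38.p6. Figures were drawn with matplotlib 3.10.9.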

Additional observations from a re-analysis of the deposited data

Results flagged for a closer look

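Tcf7l2 in secondary glioma 2, at 8.63, lay far from the other 3 secondary gliomas, with a gap of 0.884 of the group's whole range. About 1 in 20 groups of this size is flagged so by chance. None of the 9 myelin genes had such a sample among the secondary gliomas, and the 3 tertiary gliomas were too few for this check.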

How the results depend on the processing

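Of 141 values of the 9 myelin genes under other settings, 121 kept their direction and their side of the threshold, 9 lost the call, 8 gained it and 3 turned in sign. All 3 were Cldn11, at 0.29 with array weights, 0.55 without secondary glioma 3 and tertiary glioma 1, and -0.97 to 0.51 in the fits without 1 sample. With both of these samples left out, Olig2 was -0.13 and Pdgfra -0.088. Pdgfra was -0.027 with array weights. In the fits without 1 sample, Olig2 was -0.047 to 0.28 and Pdgfra -0.023 to 0.10. With a filter at the 50th percentile 2 myelin genes were called lower, since Mog, Aspa and Ppp1r14a were not tested there. Ermn lost its call with no filter on dim probe sets (adjusted p = 0.0631). Same-numbered samples did not deviate together, with correlations of 0.04, -0.14 and 0.01, and no sample correlated best with its own number. Deviations from the means of so few samples cannot decide whether the numbers pair the samples. With the replicate block over 6 samples, 3 myelin genes, 575 genes in all and 4 genes of the other oligodendrocyte lists were called lower, and 61 genes in all and 1 list gene were called higher. Of all genes, 668 were called higher with array weights, 437 at an adjusted p under 0.10, 543 without secondary glioma 3 and tertiary glioma 1, and 27 to 781 without 1 sample. Of the other oligodendrocyte lists, 7 to 12 genes were called lower without 1 sample. Apart from the fits that tested fewer genes or samples, the cause was not tested. Values near the filter, as those of Aspa in the tertiary gliomas, may lie close to background, and no detection call was used.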
